A study of Rattus norvegicus with 18 samples.

Results

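Gene expression was compared between the cerebral cortex of rats given erythropoietin (EPO) after occlusion of the middle cerebral artery and the cortex of sham-operated rats, both at 6 h. The comparison was chosen by the groups in the sample labels: 3 arrays of EPO-treated ischemia and 3 arrays of sham, 6 of the 18 arrays of the series. All animals were male Crl:CD(SD)BR rats of 250 to 280 g, and no age was given. The EPO group had the artery occluded (MCAO) and its treatment is labelled erythropoietin; the dose and route were not given in the sources used here. The sham group has the treatment label "none", although its time is also written as after MCAO. Occlusion and EPO were thus both present in one group and both absent from the other, so this comparison alone cannot tell them apart. Other groups used below were ischemia with saline at 6 h, and EPO-treated ischemia and sham at 2 h, each with 3 arrays. The labels do not state whether 1 animal or several supplied an RNA sample, so the p-values measure the spread between these samples, part of which may be technical.

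EPO is a glycoprotein hormone that drives red cell formation through its receptor, the kinase JAK2 and transcription factors of the STAT family, and it has been studied as a protective agent in models of stroke. Occlusion of the artery deprives part of the cortex of oxygen and glucose. Within hours, neurons and glia in that territory are known to switch on immediate-early genes, heat shock genes and inflammatory signals, while leukocytes are recruited along activated vessels. Bulk cortex holds all of these cells, and a lower level of a gene in bulk RNA may mean fewer cells of a type or less RNA per cell, which cannot be told apart here.

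Each sample was read on 1 one-colour Agilent array. A level below is the log2 signal of a probe relative to the 75th percentile of its array, a change is the level in EPO-treated ischemia minus that in sham, and levels are compared only within a probe. The 6 arrays had between 64.3% and 76.9% of probes well above background. The arrays fell into classes by their response to the 10 spiked-in transcripts: the slope was 0.926 for EPO replicate 3 and 0.928 for sham replicate 1, against 0.842 to 0.863 for the other 4 arrays. A slope above 0.9, called steep here, was thus found on 1 of 3 arrays in both groups. A slide here means the arrays that share a scan time in the file headers. Both steep arrays lay on slide 5, which was scanned on day 2, and the other 4 arrays were scanned on day 1. Across the probes tested the correlation between arrays was 0.988 between these 2 arrays and lowest, at 0.914, between EPO replicate 1 and sham replicate 1. Slides 3 and 5 each held 1 array of both groups, and within either slide 99.9% of the probes called below had the sign of the fit, which used those same arrays. With slide as a fixed block 3878 probes were called, and with the slope class as a block 4942.

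Of 28637 probes tested, 4224 (14.8%) passed an adjusted p of 0.05 in limma with Benjamini-Hochberg adjustment: 2068 (7.22%) were higher with EPO-treated ischemia and 2156 (7.53%) were lower. When the median of each array was used for scaling in place of the 75th percentile, 265 passed, 221 higher and 44 lower. The median change over all probes then moved from 0.03 to -0.16. Before scaling the log2 median was 8.54 on EPO replicate 1 and 7.33 to 7.91 on the other arrays compared. The 75th percentiles of all these arrays lay between 10.38 and 10.68. The part that EPO replicate 1 had in the counts under median scaling was not tested. Without the steep arrays 2029 passed. At 1 probe a gene, 2157 of 12404 genes were called (17.4%): 1118 rose (9.01%) and 1039 fell (8.38%). Rises were larger than falls: 240 genes (1.93%) were at least 2-fold higher and 20 (0.161%) at least 2-fold lower. In 2141 of the 2157 genes called, the 3 arrays of one group did not overlap those of the other. Over all genes tested the arrays did not overlap in 15.6% on the higher side and 18.6% on the lower side.

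**Figure D1:**
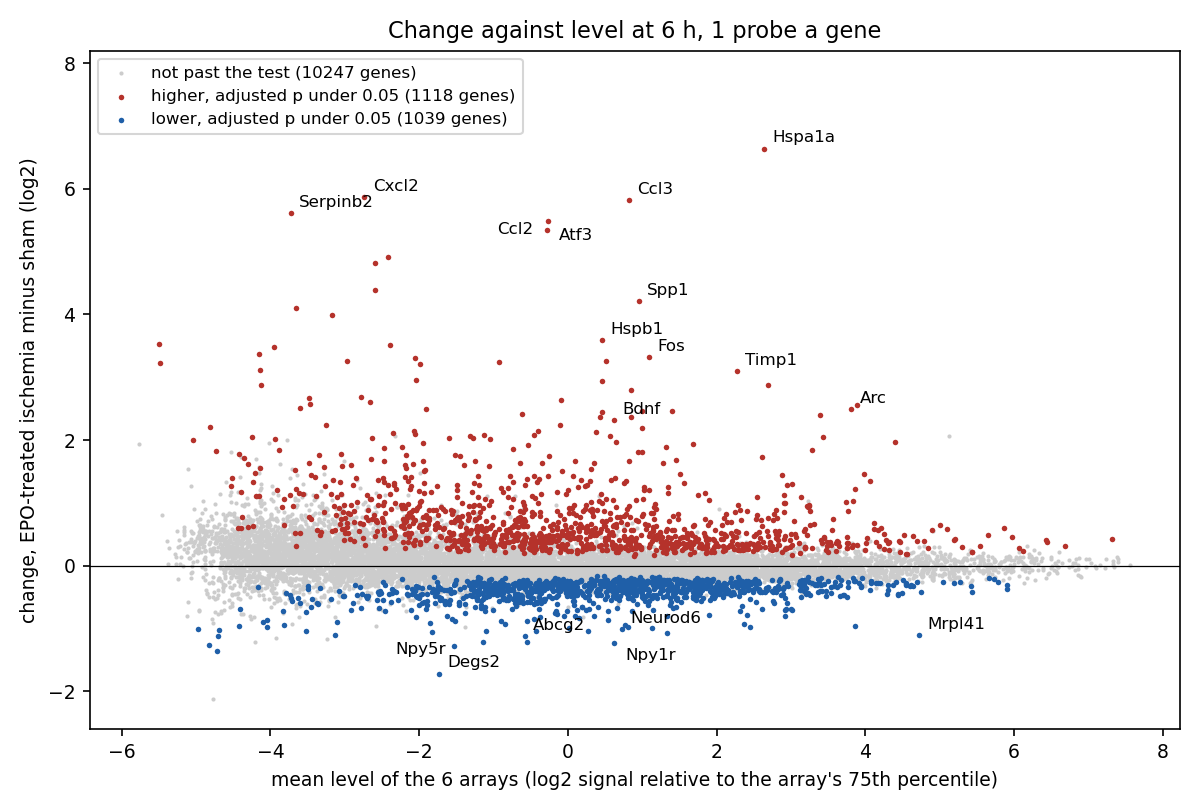
Change from sham at 6 h (vertical axis, log2) against the mean level of the 6 arrays (horizontal axis, log2 relative to the array's 75th percentile), with 1 point a gene. The 1118 genes that rose reach a change of 6.64 (Hspa1a), whereas the 1039 that fell reach -1.72 (Degs2).

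The largest change was in Hspa1a, which encodes the inducible cytosolic chaperone HSP70. Its level was -0.58, -0.53 and -0.95 in sham replicates 1, 2 and 3 and 5.93, 5.70 and 6.24 in the EPO replicates. The groups lay far apart, with a change of 6.64 ± 0.17 (SE of the fit, n = 3 against 3; limma adjusted p = 9.53e-11), or 99.9-fold. The near-identical copy Hspa1b may contribute to this signal. Hspb1, the small heat shock protein HSP27, stood at -1.15, -1.34 and -1.53 in sham and at 2.34, 2.13 and 2.29 with EPO-treated ischemia. Its rise of 3.60 ± 0.13 (adjusted p = 4.11e-09) was 12.1-fold, again with no overlap. Of 26 heat shock proteins and co-chaperones tested, 14 rose and 0 fell, with a median change of 0.34 against 0.01 over all genes. Hsph1, a nucleotide exchange factor of HSP70, rose by 1.10, the HSP40 co-chaperones Dnajb1 and Dnaja1 by 0.82 and 0.65, and the mitochondrial chaperonin subunits Hspe1 and Hspd1 by 0.60 and 0.38. Hspa1l was not well above background on any sham array and was at least 1.88-fold higher. The constitutive chaperones Hspa8 (0.13) and Hsp90ab1 (0.13) and the regulator Hsf1 (0.20) did not pass the test. The count of this list was 7 without the steep arrays and 3 under median scaling.

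Heat shock genes are known to be driven by heat shock factor bound to inverted repeats of the bases GAA. The element was searched as GAANNTTC or TTCNNGAA, on both strands, in the window from 250 bases before to 50 after each gene's start in RefSeq promoters of build GRCr8. A match was found in 15 of the 22 tested heat shock members with a promoter in the table (68.2%), against 11.9% of the 10063 tested genes with one and 15.4% of all 27457 promoters. Among genes that rose at least 2-fold the share was 12%. Of the 14 heat shock members that rose, 11 had a promoter in the table and 8 held a match, while the promoter listed for Hspa1a held none. These 11 are part of the 22 of the whole list, members that did not rise also held matches, and whether a match went with a rise was not tested. Below are the 250 bases before the start of 3 members that rose and hold more than 1 match there, chosen after their values were seen. Capitals mark the matches. In Hspb1 (chr12:26432302-26432551, GRCr8, minus strand) they begin at bases -129 and -109 from the start. In Hsph1 (chr12:10427118-10427367, GRCr8, plus strand) they begin at -105, -36 and -31, the last pair overlapping. In Hspe1 (chr9:64084077-64084326, GRCr8, plus strand) 3 overlapping matches begin at -65, -60 and -55, and the same bases lie in the promoter of Hspd1 on the opposite strand.
Hspb1: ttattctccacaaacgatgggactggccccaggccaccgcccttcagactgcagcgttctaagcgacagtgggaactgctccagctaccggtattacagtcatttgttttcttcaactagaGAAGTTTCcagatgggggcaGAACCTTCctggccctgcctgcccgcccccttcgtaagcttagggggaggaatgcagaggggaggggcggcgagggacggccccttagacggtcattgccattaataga
Hsph1: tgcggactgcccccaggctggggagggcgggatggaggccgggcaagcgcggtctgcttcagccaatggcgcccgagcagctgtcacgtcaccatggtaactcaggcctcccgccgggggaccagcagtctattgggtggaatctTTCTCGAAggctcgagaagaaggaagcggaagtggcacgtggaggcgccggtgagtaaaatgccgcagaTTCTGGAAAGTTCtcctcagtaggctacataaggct
Hspe1: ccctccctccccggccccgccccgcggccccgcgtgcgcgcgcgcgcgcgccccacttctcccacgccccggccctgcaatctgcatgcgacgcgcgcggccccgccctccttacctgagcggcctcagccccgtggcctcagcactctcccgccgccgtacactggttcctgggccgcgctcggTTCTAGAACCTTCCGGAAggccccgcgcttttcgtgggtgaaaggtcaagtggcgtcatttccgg
Other motifs were searched in the same windows on both strands. The AP-1 site TGAGTCA or TGACTCA, bound by Fos and Jun proteins, lay in 10.4% of promoters of genes that rose at least 2-fold (19 of 183) and in 3.62% of those tested. The NF-kB site GGANTTTCC lay in 6.56% of the same 183 and 1.4% of those tested, in 4 of 15 chemokine promoters (26.7%) and in 4 of 10 promoters of NF-kB subunits and inhibitors (40%). The cAMP response element TGACGTCA lay in 6.56% and 2.91%, and in 4 of 18 promoters of immediate-early genes (22.2%). Of the 16 promoters of genes that fell at least 2-fold, 3 held a heat shock element match (18.8%) and 2 a cAMP response element (12.5%). The AP-1 and NF-kB sites each lay in 1 of these 16 (6.25%). In promoters of immediate-early genes the AP-1 site lay in 0 of 18. These are counts of letters in a window, not of bound sites.

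Immediate-early genes, transcription factor genes that a stimulus switches on without new protein synthesis, rose in nearly all members tested. Of 29, 25 rose and 0 fell, with a median change of 1.29. Atf3, a stress-induced repressor of the ATF family, stood at -2.73, -3.10 and -3.20 in sham and at 2.45, 2.49 and 2.48 with EPO-treated ischemia. It rose by 5.48 ± 0.37 (limma adjusted p = 1e-06), 44.8-fold, with no overlap. Fos, a subunit of AP-1, went from -0.84, -0.45 and -0.43 to 3.06, 2.42 and 2.77, a rise of 3.32 ± 0.31 (adjusted p = 1.48e-05). Other AP-1 subunits rose by 4.39 (Fosl1, well above background on 1 of 3 sham arrays), 2.19 (Junb), 1.29 (Jun) and 1.20 (Fosl2). The zinc finger factors Egr2 and Egr4 rose by 2.45 and 1.96 and Egr1 by 0.87 ± 0.14 (adjusted p = 0.00118), from 3.23, 3.41 and 3.37 to 4.33, 3.96 and 4.34. Cebpd and Cebpb, factors of inflammatory gene control, rose by 2.40 and 1.23. Egr3 (0.61), Klf2 (0.48), Klf6 (0.36) and Jund (0.31) did not pass. The count was 22 without the steep arrays and 12 under median scaling.

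Genes that neuronal activity controls were also higher. Of 20 such plasticity genes tested 15 rose and 0 fell, with a median of 1.03. Arc, which regulates AMPA receptor uptake at synapses, stood at 2.81, 2.28 and 2.60 in sham and at 5.51, 4.72 and 4.94 with EPO-treated ischemia. Its arrays did not overlap, and it rose by 2.49 ± 0.24 (limma adjusted p = 1.67e-05). Bdnf, a neurotrophin that supports neuronal survival, went from -0.52, -0.46 and -0.65 to 1.65, 2.17 and 1.49, a rise of 2.31 ± 0.20 (adjusted p = 8.19e-06). Nptx2, a pentraxin that clusters AMPA receptors, rose by 2.55, the activity-dependent factor Npas4 by 3.26 (2 of 3 sham arrays well above background) and Ptgs2, the inducible cyclooxygenase, by 2.07. Homer1 did not pass (-0.11). Of 11 MAP kinase phosphatases and feedback regulators 7 rose, led by Dusp5 (2.46), Dusp1 (1.46) and Dusp2 (1.40), which remove phosphate from MAP kinases. Under median scaling 8 plasticity genes and 3 of these regulators were called.

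**Figure D2:**
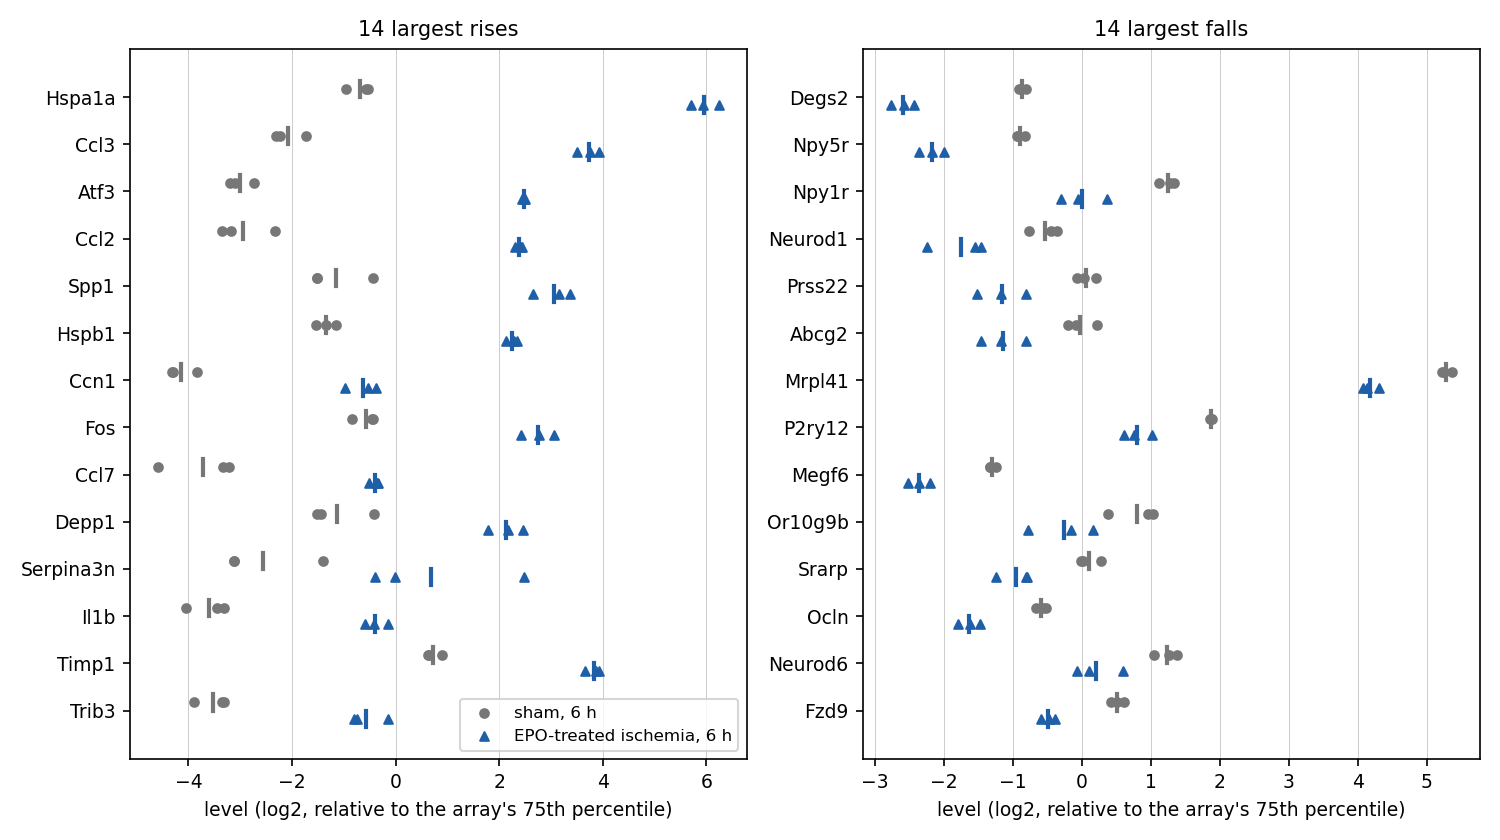
Level of each array (horizontal axis, log2 relative to the array's 75th percentile) for the 14 largest rises and the 14 largest falls among genes well above background on all 6 arrays; circles are sham, triangles EPO-treated ischemia, bars the mean of 3 arrays. In all of these genes, which were chosen for groups that do not overlap, the marks of the groups are apart, with the widest spread among EPO arrays in Serpina3n (-0.40 to 2.49).

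Chemokines, which attract leukocytes, held several of the largest rises. Of 21 chemokines and receptors tested 12 rose and 0 fell, with a median of 1.19. Only 12 of the 21 were well above background on all 6 arrays. A gene dim in sham was tested only where all arrays of another group read it, so the count of rises rests in part on this filter. Ccl3, a ligand for receptors of monocytes and other leukocytes, stood at -1.73, -2.31 and -2.22 in sham and at 3.76, 3.92 and 3.51 with EPO-treated ischemia, a rise of 5.82 ± 0.36 (limma adjusted p = 5.28e-07) and 56.3-fold. Ccl2, a monocyte attractant, went from -2.33, -3.34 and -3.18 to 2.31, 2.45 and 2.41, a rise of 5.34 ± 0.35 (adjusted p = 8.98e-07). In both genes the groups did not overlap. Where a gene was not well above background on any sham array only a lower bound on its fold can be given, set against the lowest signal among probes well above background or the gene's own signal, whichever was higher. By that measure Cxcl2, a neutrophil attractant, was at least 35.4-fold higher, Ccl4 at least 10.2-fold, Ccl20 at least 5.57-fold and Ccl12 at least 4.79-fold. Ccl20 had an adjusted p of 0.00718 that became 0.0607 without the steep arrays. Cxcl10, an interferon-inducible ligand, rose by 2.61, and the receptor Cxcr4 by 0.51. Cxcl12 (-0.31) and the microglial receptor Cx3cr1 (-0.01) did not pass. The count was 10 both without the steep arrays and under median scaling.

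Of 21 cytokines and cytokine receptors tested, 14 rose and 1 fell. Il1b, the pro-inflammatory cytokine interleukin 1 beta, stood at -4.05, -3.30 and -3.45 in sham and at -0.15, -0.42 and -0.60 with EPO-treated ischemia. The arrays did not overlap, and it rose by 3.21 ± 0.29 (limma adjusted p = 1.04e-05). Il1a rose by 2.57, Tnf by 1.85 and Il6 by 1.71, with 1, 2 and 2 of 3 sham arrays well above background. The decoy receptor Il1r2 rose by 1.78 and the antagonist Il1rn by 0.92. Il33, a cytokine of glial and barrier cells, fell by 0.35. Of 13 NF-kB subunits and feedback inhibitors 9 rose, led by Birc3 (2.50), Rel (1.87), Nfkbiz (1.63) and the inhibitor Nfkbia (1.15). Of 24 interferon response genes 12 rose, led by the guanylate-binding protein Gbp2 (2.47 ± 0.12) and the peptide transporter Tap1 (1.52). Of 10 genes of prostaglandin synthesis and receptors 3 rose, including the synthase Ptges by 2.63; the receptor Ptger2 (1.33) lost its call when any of EPO replicates 1 and 2 or sham replicate 1 was left out. Under median scaling 7 cytokine genes, 4 NF-kB genes and 4 interferon response genes were called, all higher, and without the steep arrays 11, 7 and 8.

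Adhesion molecules that leukocytes use to cross vessel walls rose in 6 of 13 members tested and fell in 1. Sele, the endothelial E-selectin, was well above background on 1 of 3 sham arrays and rose by 4.82 ± 0.51 (limma adjusted p = 4.18e-05), and Icam1, the ligand of leukocyte integrins, rose by 2.37 ± 0.14 (adjusted p = 5.07e-07). The integrin chains Itgam and Itgb2 rose by 1.09 and 0.73, and Vcam1 (0.22) did not pass. Selplg, the leukocyte ligand of selectins, fell by 0.67. Without the steep arrays 3 of the 13 rose and 0 fell, under median scaling 3 and 1, and with 1 array left out 4 to 6 and 0 to 1.

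Proteases of the matrix and of clotting, with their inhibitors, rose together. Of 21 matrix genes 12 rose and 0 fell. Timp1, an inhibitor of matrix metalloproteinases, stood at 0.90, 0.64 and 0.62 in sham and at 3.93, 3.87 and 3.67 with EPO-treated ischemia, a rise of 3.10 ± 0.19 (limma adjusted p = 4.48e-07) with no overlap. Spp1, the secreted phosphoprotein osteopontin, went from -1.51, -1.53 and -0.43 to 2.66, 3.16 and 3.36, a rise of 4.22 ± 0.68 (adjusted p = 0.00106). The serine protease inhibitor Serpina3n went from -3.13, -3.12 and -1.40 to -0.02, 2.49 and -0.40. Its rise of 3.24 ± 0.68 (adjusted p = 0.00597) rested on uneven arrays, and the adjusted p was 0.0575 without the steep ones. The syndecan Sdc1 rose by 2.13 and the metalloproteinase Mmp9 by 1.10, and Adamts1 was at least 5.15-fold higher. Of 17 genes of plasminogen activation and coagulation 11 rose and 0 fell. Serpinb2 and Tfpi2, inhibitors of plasminogen activators and of coagulation proteases, were at least 16.3-fold and at least 6.67-fold higher, the activators Plau and Plat rose by 1.76 and 1.21, and thrombomodulin (Thbd) by 1.27. Under median scaling 7 of the matrix genes and 6 of these were called.

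Other stress response lists held genes of large change. List medians were 0.69 for apoptosis and p53 targets, 0.28 for integrated stress, 0.18 for hypoxia and 0.08 for antioxidant genes. The shares over all genes were 9.01% that rose and 8.38% that fell. Of 22 genes of the integrated stress and unfolded protein responses 8 rose, led by the pseudokinase Trib3. Its level was -3.89, -3.35 and -3.31 in sham and -0.80, -0.75 and -0.14 with EPO-treated ischemia, and the rise of 2.95 ± 0.22 left no overlap. The phosphatase subunit Ppp1r15a rose by 1.81, the factor Ddit3 by 0.88 and the chaperone Hspa5 by 0.58, whereas Asns (-0.08) and Atf5 (0.29) did not pass. Of 22 apoptosis genes and p53 targets 13 rose and 1 fell: Gadd45g and Gadd45b, which respond to DNA damage and other stress, rose by 2.87 and 2.79, the cell cycle inhibitor Cdkn1a by 1.63 and the survival factor Mcl1 by 1.21, and Sesn1 fell by 0.59. Under median scaling 2 of the integrated stress genes and 3 of the apoptosis genes were called. Of 20 antioxidant genes 5 rose and 1 fell. Hmox1, heme oxygenase 1, went from -1.02, -0.88 and -1.11 to 1.93, 1.79 and 2.08, a rise of 2.94 ± 0.17 (limma adjusted p = 2.8e-07), while Nqo1 (-0.07) did not pass. The list's median of 0.08 turned to -0.11 under median scaling. Of 28 genes of hypoxia and glycolysis 10 rose, led by the vasodilator peptide Adm (2.37) and the angiogenic factor Vegfa (0.82), and the median of 0.18 turned to -0.01 under median scaling. Without the steep arrays 5 of these 28 were called.

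Growth factors rose in 12 of 26 members tested, and 0 fell. Ccn1, a matricellular protein of wounded tissue, rose by 3.51 ± 0.26, Hbegf, a ligand of the EGF receptor, by 2.08 and Angpt2, which loosens endothelial junctions, by 1.66. Gdf15 rose by 3.99, with 2 of 3 sham arrays well above background. Under median scaling 6 of the 26 were called. In cholesterol synthesis and uptake 7 of 20 genes rose, by 0.29 (Hmgcs1) to 0.73 (Mvd), and none was called under median scaling.

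In the pathway of EPO itself, 4 of 19 genes of EPO receptor and JAK-STAT signalling rose and 0 fell, where 9.01% of all genes rose and 8.38% fell: Socs3 by 1.66 ± 0.22 and Socs1 by 0.74, both feedback inhibitors of JAK kinases, the kinase Jak2 by 1.06 ± 0.11, and the factor Stat3 by 0.82. Ischemia with saline, set against the same sham arrays, gave 5 of the 19 that rose and 0 that fell, with a median of 0.11. The median of 0.18 with EPO turned to -0.01 under median scaling, with 1 call. Cish (0.20), Socs2 (-0.05), Stat5a (0.18), Stat5b (0.33), Bcl2l1 (0.11) and Pim1 (1.12), which STAT signalling is known to control or use, did not pass. The receptor Epor stood at -4.10, -3.75 and -3.27 in sham and at -2.98, -3.59 and -3.91 with EPO-treated ischemia, with overlapping arrays and a change of 0.21 ± 0.34 (limma adjusted p = 0.839). The probe of Epo was well above background on 1 of 3 arrays in both groups and was not tested.

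**Figure D3:**
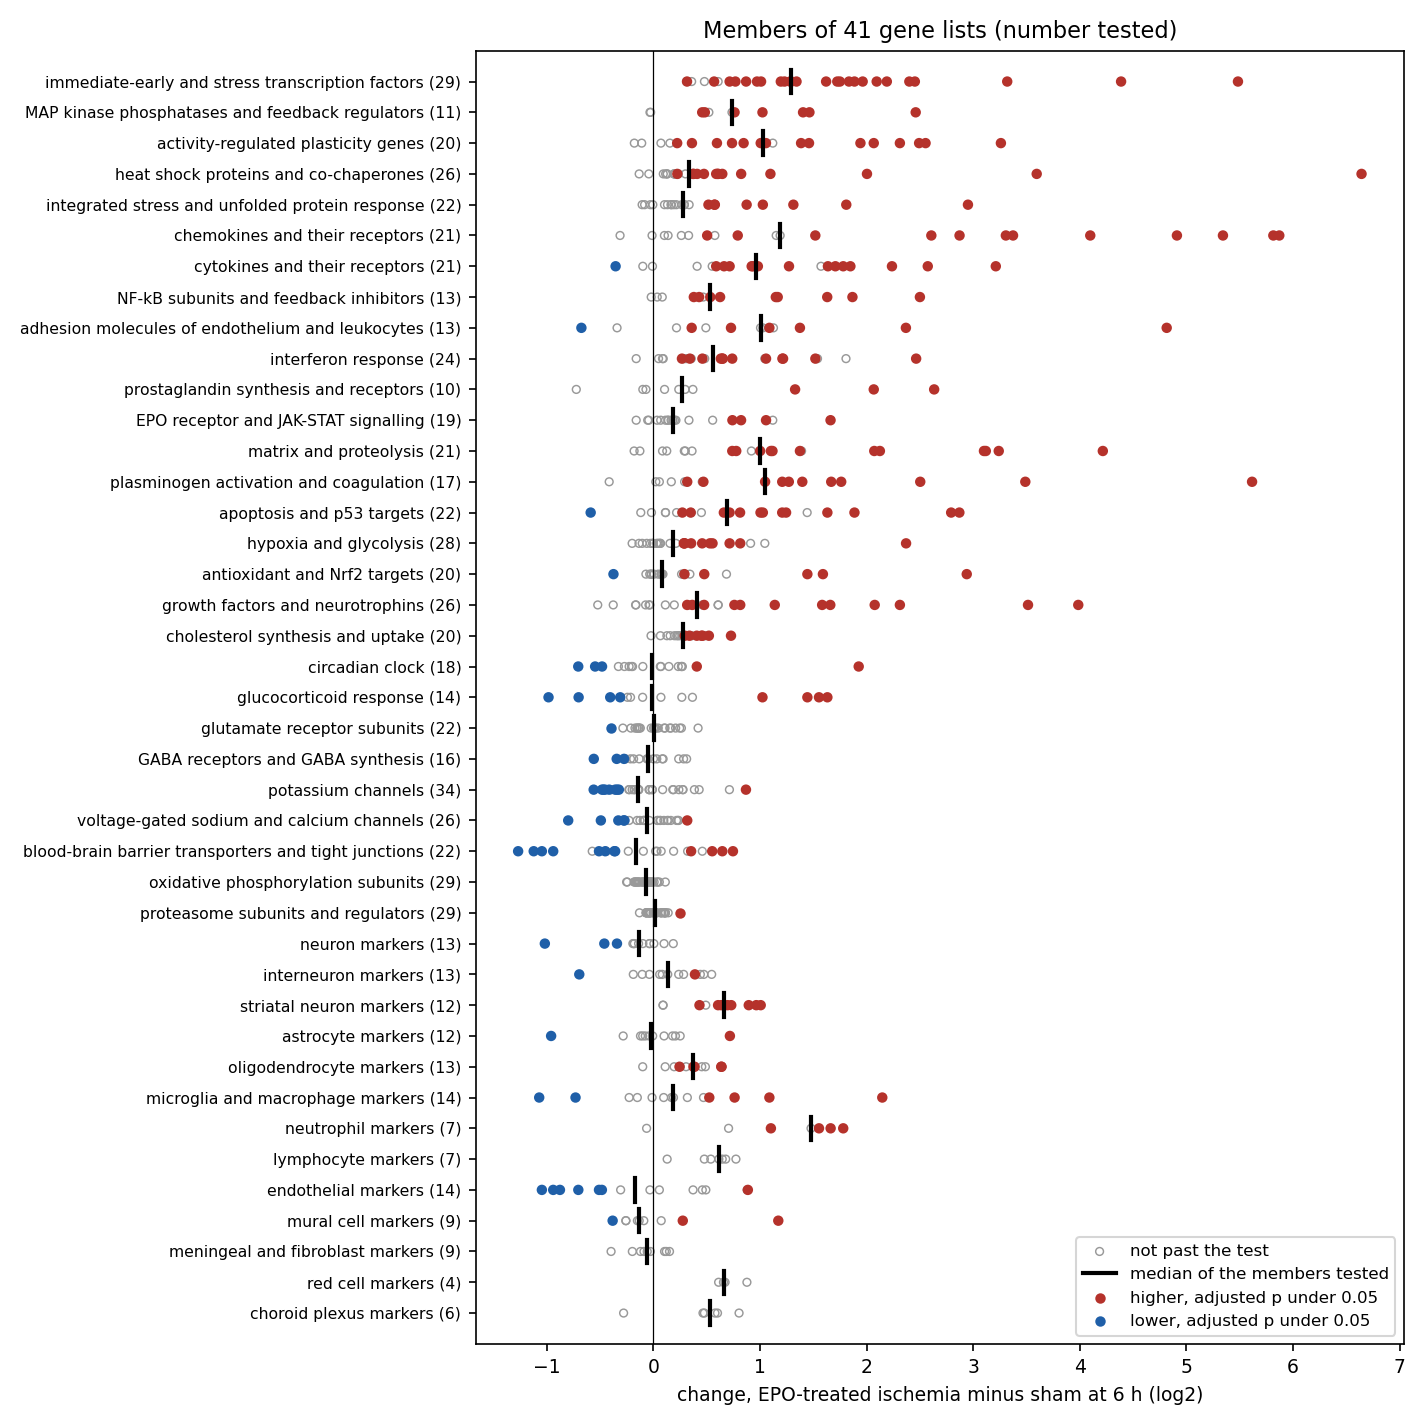
Change from sham at 6 h (horizontal axis, log2) of each tested member of the gene lists, with the number tested in parentheses; filled points passed an adjusted p of 0.05, open points did not, and black bars are medians. Immediate-early genes have a median of 1.29 and chemokines of 1.19, while oxidative phosphorylation subunits lie near 0 (-0.07); medians of the EPO receptor, hypoxia, antioxidant, glutamate receptor, proteasome, interneuron and microglia lists change sign under median scaling.

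The largest falls were smaller and more scattered in function. Degs2, a sphingolipid desaturase and hydroxylase, stood at -0.88, -0.91 and -0.81 in sham and at -2.43, -2.57 and -2.76 with EPO-treated ischemia. It fell by 1.72 ± 0.11 on the log2 scale (limma adjusted p = 8.72e-07), or 3.29-fold, with no overlap. Receptors of neuropeptide Y followed. Npy5r went from -0.92, -0.93 and -0.82 to -2.17, -2.36 and -1.99 (change -1.28 ± 0.11, adjusted p = 8.19e-06), and Npy1r from 1.33, 1.28 and 1.13 to -0.29, -0.05 and 0.36 (change -1.24 ± 0.15, adjusted p = 0.000105). Neither gene's arrays overlapped. The neuronal differentiation factors Neurod1 and Neurod6 fell by 1.22 and 1.02. Mrpl41, a protein of the mitochondrial ribosome, went from 5.36, 5.22 and 5.25 to 4.07, 4.31 and 4.13 (change -1.11 ± 0.13), and the Wnt receptor Fzd9 fell by 0.99 ± 0.07 (adjusted p = 2.13e-06). Or10g9b, an olfactory receptor gene, had a change of -1.05 and lost its call without EPO replicate 3, sham replicate 2 or sham replicate 3. Among genes not well above background on any EPO array, only a bound on the fold can be given. Tyr (at least 1.57-fold lower) lost its call without sham replicate 3, Abcb1a (at least 1.40-fold) without EPO replicate 1 or sham replicate 1, and Ces1d (at least 1.46-fold) in 3 of the 6 omissions. Or2v1 (at least 1.66-fold) and Dsc2 (at least 1.16-fold) lost it in 5 of 6.

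Of 22 genes of the blood-brain barrier tested 8 fell and 4 rose, with a median of -0.16, where 8.38% of all genes fell and 9.01% rose. Without the steep arrays 3 fell and 3 rose, with only the groups compared in the fit also 3 and 3, under median scaling 2 and 0, and with 1 array left out 4 to 8 fell and 3 to 4 rose. Ocln, the tight junction protein occludin, stood at -0.56, -0.67 and -0.52 in sham and at -1.80, -1.47 and -1.62 with EPO-treated ischemia, a fall of 1.05 ± 0.16 (limma adjusted p = 0.000878) with no overlap. The anion transporter Slco1a4 fell by 0.94 ± 0.13 and the tight junction protein Cldn5 by 0.51. Abcg2, an efflux pump, went from 0.22, -0.20 and -0.08 to -1.46, -1.16 and -0.81. Its change of -1.12 ± 0.27 (adjusted p = 0.0117) did not pass without EPO replicate 1, and its adjusted p without the steep arrays was 0.0806. The transporters Slc7a5, Slc16a1 and Slc2a1 rose, by 0.65, 0.55 and 0.35. Endothelial markers overlap this list: 6 of 14 fell, among them Tek (0.70) and the factors Sox17 (0.88) and Sox18 (0.48), and Kdr, a VEGF receptor, rose by 0.89. The endothelial falls numbered 3 without the steep arrays and 3 to 7 when 1 array was left out. The share that endothelial cells made up of each sample was not tested.

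Genes of neuronal excitability are given beside the 9.01% of all genes that rose and the 8.38% that fell. Of 34 potassium channel genes 8 fell and 1 rose: Kcnj6 fell by 0.56, Kcnn2 by 0.48 and Kcnc1 by 0.47, and Kcnf1 rose by 0.87. Of 26 sodium and calcium channel genes 5 fell, led by Scn1a (0.80 ± 0.08), and Scn3a rose by 0.32. Of 22 glutamate receptor subunits 1 fell (Gria2 by 0.40), and of 16 GABA genes 3 fell. Without the steep arrays the falls were 3 for potassium channels, 2 for sodium and calcium channels and 0 for the GABA genes, and under median scaling none of these falls was called. Of 29 oxidative phosphorylation subunits none passed, and of 29 proteasome genes 1 rose (Psmd11 by 0.25), a call lost in each of the 6 single-array omissions.

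Clock and glucocorticoid genes held calls in both directions, with list medians of -0.02 and -0.01. The clock list had 2 rises and 3 falls and the glucocorticoid list 4 and 4, where 9.01% of all genes rose and 8.38% fell. Under median scaling either list held only 1 rise and 0 falls. Nfil3, a repressor of clock-driven genes, rose by 1.93 and Cry1 by 0.41, while Dbp, Per2 and Nr1d2 fell by 0.70, 0.55 and 0.48, of 18 clock genes tested. Among 14 glucocorticoid response genes, Fkbp5 fell by 0.70 and Sult1a1 by 0.98, as did the receptors Nr3c1 (0.31) and Nr3c2 (0.40). Lcn2 (1.55), Mt1 (1.45), Cdkn1a (1.63) and Errfi1 (1.02) of that list rose, each of which is also in another list here, and Sgk1 (0.37) and Tsc22d3 (-0.24) did not pass. With only the groups compared 3 glucocorticoid genes rose and 0 fell.

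Markers of cell types were measured beside these groups, and their counts are set beside the 9.01% of all genes that rose and the 8.38% that fell. All 13 neuron markers tested were well above background on all 6 arrays. Among them Neurod6 fell, from 1.38, 1.27 and 1.04 to 0.11, -0.07 and 0.61, and so did Rbfox3 (0.46) and Syt1 (0.34), with a list median of -0.14. The other 10 were not called. The falls of neuron markers numbered 2 without the steep arrays, 1 with only the groups compared and 0 under median scaling. Striatal neuron markers, which are strongest in the striatum beneath the cortex, rose in 8 of 12 members, led by Penk (1.01), Tac1 (0.97), Adora2a (0.90) and Drd2 (0.73). The mean level of that list was 0.94 to 1.33 on the sham arrays and 1.55 to 1.98 on the EPO arrays. Without the steep arrays 2 of the 12 were called, with 1 array left out between 2 and 8, and under median scaling 0. Ischemia with saline, set against the same sham arrays, gave 3 of 12 that rose and a median of 0.62, beside 0.67 with EPO. Oligodendrocyte markers rose in 5 of 13, with mean levels of 2.66 to 2.88 in sham and 2.99 to 3.15 with EPO-treated ischemia. With 1 array left out 2 to 7 of them were called, under median scaling 0 and with only the groups compared 0. The part that uneven dissection of striatum or white matter had in any result was not tested.

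Among glial markers, the microglial receptor P2ry12 stood at 1.89, 1.86 and 1.88 in sham and at 0.77, 0.62 and 1.03 with EPO-treated ischemia, a fall of 1.07 ± 0.21 (limma adjusted p = 0.00397). Tmem119, another homeostatic microglial gene, fell by 0.73, whereas the lipopolysaccharide co-receptor Cd14 rose by 2.15, Tyrobp by 0.76 and Cd68 by 0.53. In the list of 14 markers of microglia and macrophages there were 4 rises and 2 falls, and under median scaling 1 and 0. Gfap, the astrocyte filament protein, went from 1.90, 2.20 and 1.80 to 2.75, 2.82 and 2.48. Its rise of 0.72 ± 0.19 (adjusted p = 0.0188) was lost without EPO replicate 1 or 2 or sham replicate 1 or 3, with an adjusted p of 0.0607 without the steep arrays. The astrocyte connexin Gjb6 fell by 0.96, with a limma adjusted p of 0.0628 with only the groups compared and 0.17 under median scaling. Of 12 astrocyte markers tested only Gfap and Gjb6 were called, 1 rise and 1 fall, with a list median of -0.02. Over all genes 9.01% rose and 8.38% fell.

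Of blood cell markers, 4 of 7 neutrophil genes tested rose: Il1r2, S100a8 (1.66), Lcn2 and Mmp9. The other 3 did not pass, and 9.01% of all genes rose. Mean list levels were -3.91 to -3.09 in sham and -2.86 to -1.69 with EPO-treated ischemia. Of 12 neutrophil genes on the array only 7 were tested, and 5 of these were well above background on all 6 arrays. A gene dim in sham was tested only through another group, so this count rests in part on the filter. S100a8 was not called without sham replicate 1 and Lcn2 in 4 of 6 omissions. None of 7 lymphocyte markers, 4 red cell markers, 9 meningeal markers or 6 choroid plexus markers passed. The part of blood cells in the inflammatory rises above was not tested.

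EPO-treated ischemia was then set against ischemia with saline at 6 h, the comparison that holds occlusion the same. In limma 0 of 28637 probes passed, 1197 had an unadjusted p under 0.05, and the smallest adjusted p was 0.777. At 1 probe a gene 516 of 12404 genes (4.16%) had an unadjusted p under 0.05, 279 of them higher with EPO (2.25%). Hspa1a differed by -0.10 and Ccl3 by -0.22 between EPO and saline. Against the same sham arrays, ischemia with saline gave 2782 probes called (9.71%), 1578 higher (5.51%) and 1204 lower (4.2%), and 1433 genes (11.6%), of which 879 rose (7.09%) and 554 fell (4.47%).

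Several of the genes with the smallest p in that comparison belong to the immediate-early and plasticity lists, and their values are given as a description. Fosl2 stood at -2.53, -2.35 and -2.01 with saline and was 0.89 ± 0.17 higher with EPO (limma unadjusted p = 0.000148, adjusted p = 0.777). Bdnf stood at 0.88, 0.59 and 1.25 with saline, below each of its EPO arrays, with a difference of 0.87 ± 0.20 (unadjusted p = 0.000815). Arc stood at 4.12, 3.99 and 4.36 with saline, also below each EPO array, and differed by 0.90 ± 0.24 (unadjusted p = 0.0022). Egr1 differed by 0.64 ± 0.14, Dusp5 by 1.05 ± 0.28, the kinase gene Sik1 by 0.56 and Mas1, a receptor of angiotensin peptides, by 0.89 ± 0.17. In the other direction the smallest p-values were those of Cluap1 (-0.30), Vps37a (-0.33), Sesn1 (-0.35), Sephs2 (-0.25) and Ssbp3 (-0.22). For Egr1 and Fosl2 the change of saline from sham was 0.23 and 0.30 and did not pass, against 0.87 and 1.20 for EPO, which did. In the list of 29 immediate-early genes 14 (48.3%) had an unadjusted p under 0.05, all higher with EPO, and the median difference was 0.35. In the plasticity list the count was 10 of 20, and in the phosphatase list 5 of 11. Red cell markers had the highest share of any list, 3 of 4 (75%), all higher with EPO at a median of 0.71. Of the 3 saline arrays 2 had a steep spike-in slope, against 1 of 3 with EPO. With the slope class as a block the counts of these lists were 14, 10, 4 and 3, and without the steep arrays, which left 1 saline array, 10, 8, 1 and 0. The part of blood in this comparison was not tested. None of these genes passed the adjusted threshold, so a difference between EPO and saline is not shown for any one of them.

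**Figure D4:**
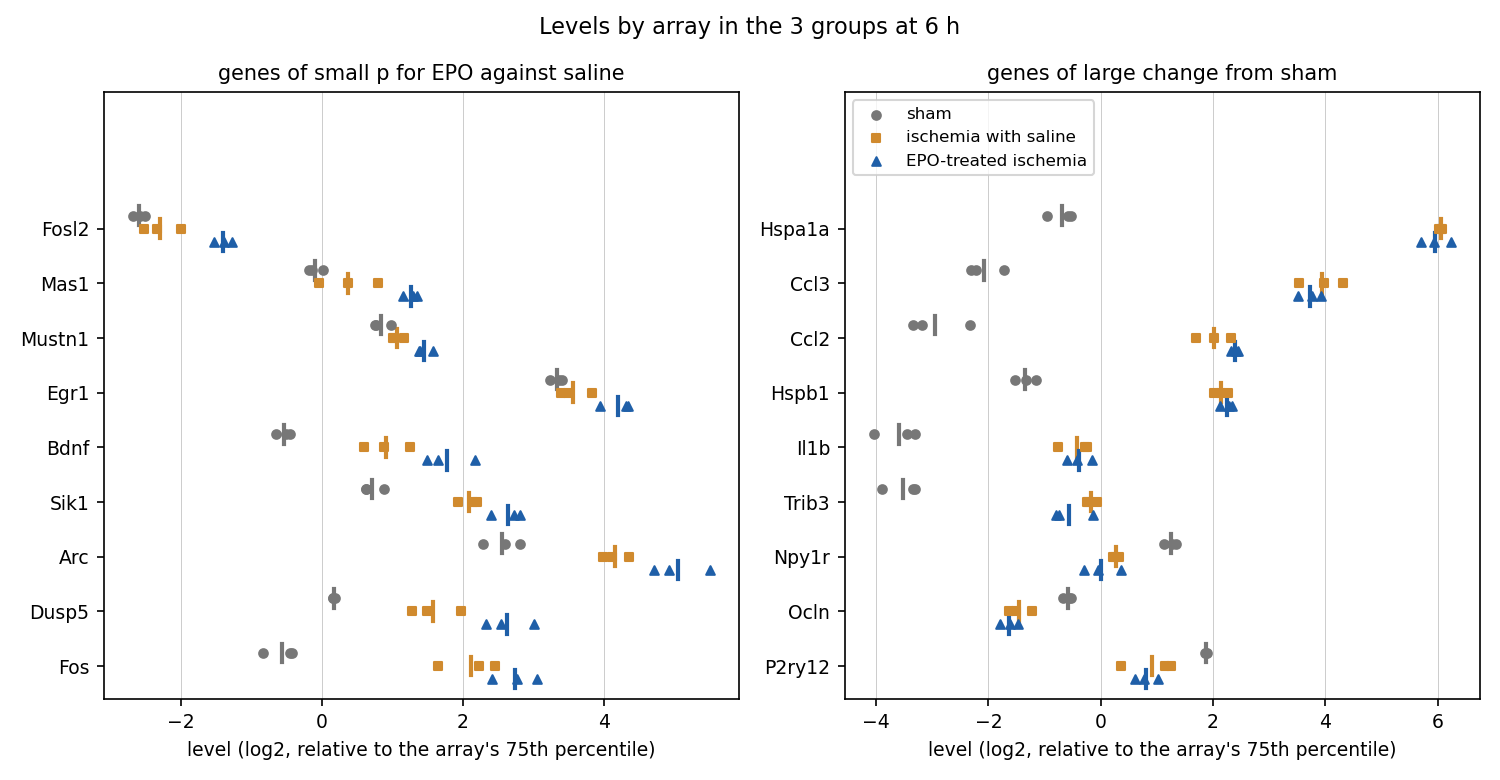
Level by array at 6 h (horizontal axis, log2 relative to the array's 75th percentile) in sham (circles), ischemia with saline (squares) and EPO-treated ischemia (triangles), with bars for the mean of 3 arrays. In the left panel EPO arrays lie above saline arrays for Bdnf, Arc and Fosl2, with 0 probes past the adjusted threshold in that comparison; in the right panel EPO and saline arrays overlap for Hspa1a (difference -0.10) and Ccl3 (difference -0.22).

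The change from sham at 6 h was also set against that at 2 h, each with sham of its own time. At 2 h 406 probes were called (1.42%), 335 higher (1.17%) and 71 lower (0.248%), and 238 genes (1.92%), of which 208 rose (1.68%) and 30 fell (0.242%). The difference of the changes, 6 h minus 2 h, passed in limma for 713 of 28637 probes (2.49%), 383 upward (1.34%) and 330 downward (1.15%), and for 407 genes (3.28%). Under median scaling 1 probe passed and without the steep arrays 99.

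Some of the genes with the largest changes were already high at 2 h, while their lists were called in fewer members. At 2 h 7 of 26 heat shock genes, 5 of 21 chemokines and receptors and 2 of 22 integrated stress genes rose, against 14, 12 and 8 at 6 h. Over all genes tested 1.68% rose at 2 h and 9.01% at 6 h. Of 29 immediate-early genes 22 rose at 2 h and 25 at 6 h, and of 20 plasticity genes 12 and 15. Hspa1a had a change of 5.52 at 2 h and 6.64 at 6 h, a difference of 1.12 ± 0.24 (limma adjusted p = 0.0269). Ccl3 changed by 5.09 and 5.82 and Fos by 3.55 and 3.32, with differences that did not pass (adjusted p = 0.512 and 0.782). Arc changed by 2.38 and 2.49. Egr1 changed by 1.59 and 0.87, and that difference of -0.72 ± 0.20 did not pass either (adjusted p = 0.0811).

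The difference passed upward for 9 of 21 matrix genes, 7 of 22 apoptosis genes, 6 of 21 chemokines and receptors and 6 of 24 interferon response genes, against 1.89% of all genes. Sdc1 stood at -0.43, -0.67 and -0.75 on the EPO arrays and at -0.94, -0.73 and -0.82 on the sham arrays at 2 h, where its change of 0.21 did not pass. At 6 h it was 2.13, a difference of 1.92 ± 0.14 (limma adjusted p = 3.29e-05). Gbp2 went from a change of 0.33 to 2.47 (difference 2.14 ± 0.18, adjusted p = 8.72e-05). Spp1 went from 0.15 to 4.22 (adjusted p = 0.043), Trib3 from 0.68 to 2.95 (adjusted p = 0.00249) and Nes, an intermediate filament of progenitors and reactive cells, from -0.27 to 0.97 (adjusted p = 0.000189). Sele, not well above background on any array of EPO or sham at 2 h, went from 0.20 to 4.82 (adjusted p = 0.00501).

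Kcnv1 and Vegfc had called changes of opposite sign at the 2 times. Kcnv1, a silent potassium channel subunit, stood at 2.14, 2.17 and 2.26 in sham at 2 h and at 2.89, 2.87 and 2.78 with EPO-treated ischemia, a rise of 0.66 ± 0.06 (limma adjusted p = 0.000115). At 6 h it fell by 0.41, and the difference was -1.07 ± 0.09 (adjusted p = 0.000111). Vegfc, a lymphatic growth factor, rose by 0.48 at 2 h and fell by 0.46 at 6 h (difference -0.95 ± 0.12, adjusted p = 0.00176). Npy1r changed by 0.43 at 2 h, which did not pass, and by -1.24 at 6 h (difference -1.66 ± 0.21, adjusted p = 0.00163), and Neurod6 by 0.57, also not past the test, and by -1.02 (difference -1.59 ± 0.23, adjusted p = 0.00288).

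**Figure D5:**
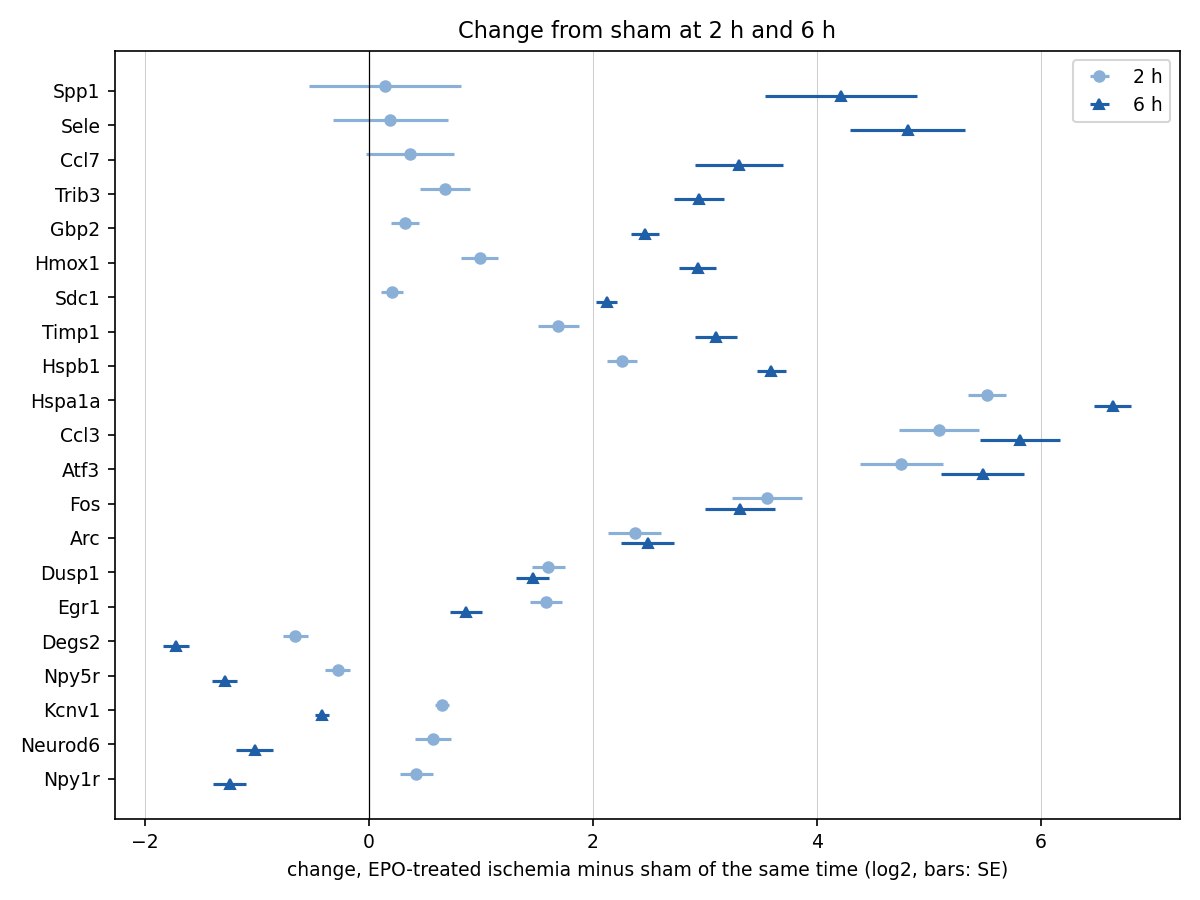
Change of EPO-treated ischemia from sham of the same time (horizontal axis, log2) at 2 h (circles) and 6 h (triangles), with bars for the SE of the fit on 3 against 3 arrays. Spp1, Sele, Gbp2 and Sdc1 reach at most 0.33 at 2 h and at least 2.13 at 6 h, Fos stands at 3.55 and 3.32, and Kcnv1, Neurod6 and Npy1r lie on opposite sides of 0.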

How the data were processed

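Total RNA of 18 samples of rat cortex was labelled with Cy3 and hybridised to 1 Agilent array each. The deposited scanner files hold an intensity per spot, background-subtracted by the authors with Feature Extraction 9.1.1.1, per the file headers. The authors' deposited value table holds log2 values that equalled the mean log2 processed signal over all spots of a probe, with no further scaling and no centring. Here log2 processed signals without outlier spots were averaged per probe, and each array's 75th percentile was subtracted. A probe was tested if in 1 or more of the 6 groups all arrays read it well above background (28637 of 41012 probes). Probes dim in sham at 6 h thus entered through another group. Counts of rises in lists that hold such genes rest in part on this filter. One model of 6 group means over 18 arrays (12 residual degrees of freedom) was fitted in R 4.3.3 (limma 3.58.1), using a two-sided moderated test and Benjamini-Hochberg adjustment over all probes tested, at a threshold of 0.05. Spread is thus shared by all groups. Precision is limited by the 3 arrays a group, with changes having a standard error of 0.13 at the median.

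A gene was represented by its tested probe of highest mean signal. Of 41012 probes, 20035 were named through RefSeq by accession (10726), symbol (5580) or synonym (3729), and 20977 kept the name in the file. Gene lists are described by counts and medians, with no set test. Genes named in the text were the 14 largest rises and falls, the 6 largest bounds each way, up to 4 called members of each list with the smallest p, a fixed set (among them Epo, Epor, Bdnf and Arc) and the genes with the smallest p in the other comparisons; further list members are named as examples. The comparison, the lists and these rules were chosen with earlier results of these data known. Samples with the same replicate number were checked for pairing: their deviations from the group means correlated at -0.889, 0.24 and -0.774, so the numbers were not used as pairs. The fit was tested on simulated data with noise independent between probes and arrays. Such data hold no deviation shared by the probes of an array, so that test cannot tell how such deviations affect the calls. Alternatives covered background correction, scaling, the filter on dim probes, the variance model, slide, spike-in slope and the arrays left out. Some genes counted in the lists are not reported here by name.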

Additional observations from a re-analysis of the deposited data

Results flagged for a closer look

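The change from sham in EPO-treated ischemia differed between 6 h and 2 h for 713 probes, by a test of the difference itself (limma, adjusted p under 0.05). Differences below are the change at 6 h minus the change at 2 h, on the log2 scale, for the genes named by the rules above, with 3 arrays in each of 4 groups.

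The largest upward differences were those of Serpinb2 (5.82), Sele (4.62), Ccl20 (4.55), Spp1 (4.07), Ccl7 (2.94), Trib3 (2.27), Gbp2 (2.14) and Ccl4 (2.04). They include selectin, chemokine, matrix and interferon response genes. Serpinb2, Ccl20, Ccl4 and Sele were not well above background on most or all sham arrays, so the size of their differences is loosely fixed. Smaller upward differences, of at least 1.20, were those of Tnfrsf12a (1.98), Hmox1 (1.95), Sdc1 (1.92), Depp1 (1.91), Hbegf (1.81), Gadd45b (1.80), Adamts9 (1.75), Angpt2 (1.67), Adm (1.58), Tap1 (1.56), Srxn1 (1.43), Timp1 (1.41), Tfpi2 (1.33), Hspb1 (1.33), Cebpd (1.32), Cd14 (1.31), Icam1 (1.26), Cd44 (1.25), Nes (1.24), Myc (1.24), Il4r (1.23) and Gadd45g (1.23). This set holds heme oxygenase, the Gadd45 stress genes, growth factor genes and the small heat shock protein gene Hspb1.

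Upward differences below 1.20 were those of Des (1.15), Hspa1a (1.12), Nfkbia (1.12), Mmp9 (1.10), Irf1 (1.01), Gadd45a (0.97), Clic1 (0.96), Csf1 (0.95), Nfkb2 (0.94), Procr (0.88), Anxa2 (0.86), Rsad2 (0.85), Mt1 (0.84), Jak2 (0.82), Socs1 (0.76), Ddit3 (0.74), Fndc3b (0.66), Mcl1 (0.65), Hsph1 (0.63), Vegfa (0.58), Cebpb (0.52) and Nfe2l2 (0.40). Members of NF-kB control (Nfkb2, Nfkbia), JAK-STAT signalling (Jak2, Socs1) and chaperones (Hspa1a, Hsph1) are among them. Downward differences were those of Sephs2 (-0.38), Fzd9 (-0.43), Cacna2d3 (-0.47), Cluap1 (-0.50), Zfp281 (-0.54), Scn1a (-0.58), Slitrk3 (-0.61), Slco1a4 (-0.93), Vegfc (-0.95), Cdh7 (-1.0), Npy5r (-1.01), Degs2 (-1.06), Kcnv1 (-1.07), Neurod6 (-1.59) and Npy1r (-1.66). Channel genes (Kcnv1, Scn1a, Cacna2d3) and both neuropeptide Y receptor genes are in this set. Under median scaling 1 of 28637 probes passed this test and without the arrays of steep spike-in slope 99, and the cause was not tested.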

How the results depend on the processing

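With 3 arrays a group, counts of calls moved with scaling, with the arrays used and with how the spread was estimated, and the cause was not tested. For EPO-treated ischemia against sham at 6 h, the 4224 probes called (2068 higher, 2156 lower) became 265 under median scaling (221 and 44), 2255 with the authors' values without scaling (1059 and 1196), 1115 with only the groups compared (754 and 361), 2029 without the arrays of steep spike-in slope (1164 and 865) and 2139 at a threshold of 0.01 (1189 and 950). Leaving out 1 array gave 2855 to 4099, with 1454 to 1922 higher and 1380 to 2177 lower. Under the other alternatives (normexp, quantile normalization, other filters, saturated spots left out, trended variance, slide or slope terms, the arrays with apart title numbers left out) counts ranged from 3156 to 5064. For EPO against saline 0 probes were called under every alternative run, with 452 to 3548 at an unadjusted p under 0.05, the highest without EPO replicate 3. For the difference between 6 h and 2 h, the 713 probes became 1 under median scaling, 262 without scaling, 333 with no filter on dim probes, 241 with only the groups compared, 216 with slide as a fixed block, 99 without the steep arrays, 371 without the arrays of apart title numbers and 176 at 0.01. Leaving out 1 array gave 327 to 1025. The replicate block, for numbers that do not pair the samples, gave 0 probes for the first comparison (3994 at an unadjusted p under 0.05, with few residual degrees of freedom), 0 for EPO against saline and 88 for the difference between times. Of 179 named genes 165 were called, and of these 143 kept their call in all 6 single-array omissions, 139 without the steep arrays, 71 under median scaling and 165 with the slope class as a block. Changes that turned sign were all of genes not called: Cd3d under median scaling (-0.065), Epor under quantile normalization (-0.053) and without EPO replicate 1 (-0.045; up to 0.431 with other arrays left out), Otx2 without the arrays of apart title numbers and without sham replicate 1 (-0.042; up to 1.757), and Slc4a5 in those same settings (-0.468) and without EPO replicate 1 (-0.167; up to 1.538).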
